A study of Mus musculus with 16 samples.

Results

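Net1, Rassf6, Echdc2 and Dido1 were lower in mouse gonadal fat after brain infusion of SHU9119, and these 4 genes are described here across every library of the study. They are 4 of 24454 genes in the deposited count table, identified by NCBI gene number and named through a reference annotation. They were chosen with these measurements in view. Net1, Rassf6 and Echdc2 stood among the 4 largest falls with SHU9119 averaged over both surgeries, counting only called genes whose mean level reached 5 CPM (counts scaled to library size). Dido1 was 1 of 3 genes past the threshold that were lower in sham-operated mice. The comparison each gene was chosen on is inferred from these positions. The differences with SHU9119 are therefore given below as a description without a test.

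The study crossed a nerve operation with a drug infusion in lean, chow-fed males of the inbred C57BL/6J strain, aged 16 weeks. Sham_SHU mice had sham surgery and SHU9119, Sham_Veh mice had sham surgery and vehicle, VX_SHU mice had subdiaphragmatic vagotomy (sDVX) and SHU9119, and VX_Veh mice had sDVX and vehicle. In sDVX the vagus nerve is cut below the diaphragm. The infusion into the cerebral ventricles began 4 weeks after surgery and ran for 2 weeks, with SHU9119 at 1 nmol per day, and all groups were fed the same calories during it. Each group had 4 libraries of polyadenylated RNA. The labels do not tie the libraries to separate animals. The spread behind each p-value is that between libraries and may be technical.

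SHU9119 is an antagonist peptide of the brain melanocortin receptors, which restrain feeding and raise sympathetic outflow to fat. The 4 genes act in unrelated pathways. Net1 encodes a guanine nucleotide exchange factor that loads the small GTPase RhoA with GTP, a step that drives actin fibre assembly. Rassf6 encodes a protein with a Ras association domain that binds the Hippo pathway kinases and can promote apoptosis. Echdc2 encodes a mitochondrial protein of the enoyl-CoA hydratase family, whose better known relatives break down fatty acids and branched-chain amino acids. Dido1 encodes chromatin proteins, in several isoforms, with a domain that binds trimethylated lysine on histone H3 at active promoters.

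On the mm10 build (GRCm38, GENCODE M21 annotation), Net1 (gene 56349) lies on the minus strand of chromosome 13 from 3882018 to 3918220. Rassf6 (gene 73246) lies on the minus strand of chromosome 5 from 90603076 to 90640657. Echdc2 (gene 52430) lies on the plus strand of chromosome 4 from 108165437 to 108179308. Dido1 (gene 23856) lies on the minus strand of chromosome 2 from 180657964 to 180709999. Both Net1 and Dido1 start beside a gene of the opposite strand: 53 bases separate Net1 from the tubulin gene Tubal3, and 117 bases separate Dido1 from Gid8, a subunit of a ubiquitin ligase complex. Gid8 differed little where Dido1 was lower, with a log2 difference between SHU9119 and vehicle of −0.06 ± 0.0795 in sham mice (SE, edgeR adjusted p = 0.692) and 0.002 ± 0.0795 in sDVX mice. Tubal3 was not tested.

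The upstream sequences of 3 of the 4 genes are shown as a description of genes chosen as lower with SHU9119. They come from RefSeq on GRCm38.p6. Net1 has 2 annotated starts, and counts per gene cannot tell transcripts of one start from those of the other. The Net1 windows span chr13:3918221-3918470 and chr13:3893582-3893831, each the 250 bases before a start on the minus strand. The outer Net1 window reaches past the 53 bases between the genes into the annotated Tubal3 gene. Its GC box, which begins 57 bases before the Net1 start, lies at that boundary. The Echdc2 window spans chr4:108165187-108165436 on the plus strand. The Dido1 stretch spans chr2:180710069-180710116 on the minus strand, 48 bases of the interval between Dido1 and Gid8 that lie outside all annotated transcripts of both. Capitals mark matches, on either strand, to the GC box, the CCAAT box or the E box.
Net1 outer start: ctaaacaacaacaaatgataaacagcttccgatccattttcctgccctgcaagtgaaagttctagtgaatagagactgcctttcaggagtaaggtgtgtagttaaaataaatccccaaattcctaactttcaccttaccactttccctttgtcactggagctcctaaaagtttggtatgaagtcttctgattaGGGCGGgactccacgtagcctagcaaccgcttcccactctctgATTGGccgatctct
Net1 inner start: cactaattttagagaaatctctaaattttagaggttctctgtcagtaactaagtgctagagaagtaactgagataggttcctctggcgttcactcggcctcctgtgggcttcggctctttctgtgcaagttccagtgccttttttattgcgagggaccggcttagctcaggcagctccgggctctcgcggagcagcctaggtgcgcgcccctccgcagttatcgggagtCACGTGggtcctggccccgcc
Echdc2 start: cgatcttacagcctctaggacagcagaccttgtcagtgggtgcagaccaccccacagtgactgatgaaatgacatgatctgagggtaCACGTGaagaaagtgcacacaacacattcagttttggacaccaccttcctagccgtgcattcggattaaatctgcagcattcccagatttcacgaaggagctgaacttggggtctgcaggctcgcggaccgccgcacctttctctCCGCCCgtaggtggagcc
Dido1 and Gid8 interval: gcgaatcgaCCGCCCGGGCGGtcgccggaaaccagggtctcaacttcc
The E box stood 21 bases before the inner Net1 start and 163 bases before the Echdc2 start. Of 32851 promoter windows of 250 bases in the RefSeq table, 6.02% hold an E box (CACGTG on either strand). A GC box, spelled GGGCGG here, is held by 32.7% of those windows, and a CCAAT box, searched by the letters of its name, by 33.8%. The Dido1 interval holds a GC box on each strand, side by side, at 108 and 102 bases before the start. The cAMP response element (TGACGTCA), present in 1.55% of all windows, was searched too and was in none of the printed stretches, and the 250-base window of Rassf6 held none of the 4 motifs. There was no motif common to all 4 genes, and a match is only a match of letters.

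Totals ran from 20425295 to 30889052 counts per library, and 16682 genes passed the filter on low counts, all 4 members among them. Adipocyte markers (10 of 10 in the table) summed to 14317 to 43970 CPM, so all libraries read as fat. Of the libraries, 7 held at least 500 CPM of epididymis or of testis and sperm markers, tissues that lie beside this depot: Sham_SHU3, Sham_SHU4, Sham_Veh3, Sham_Veh4, VX_SHU4, VX_Veh1 and VX_Veh4. Motile cilia markers (14 of 16 in the table) summed to 18.55 to 202.1 CPM in Sham_SHU against 14.66 to 510.7 CPM in Sham_Veh, and to 12.94 to 234.2 CPM in VX_SHU against 22.37 to 1380 CPM in VX_Veh. Mesothelium markers, of the lining of the depot (13 of 14 in the table), summed to 93.16 to 315.8 CPM in Sham_SHU against 214.7 to 510.9 CPM in Sham_Veh, and to 169.6 to 415.1 CPM in VX_SHU against 396.6 to 858.3 CPM in VX_Veh. Stromal progenitor markers (10 of 10 in the table) summed to 4221 to 4669 CPM in Sham_SHU against 3725 to 4732 CPM in Sham_Veh, and to 4418 to 5100 CPM in VX_SHU against 3056 to 3989 CPM in VX_Veh, without overlap after sDVX. Their part in the differences of the 4 genes was not tested. The sums of macrophage, endothelial, mural, lymphocyte, epididymis and testis markers overlapped between infusions in both surgeries. In whole tissue, fewer cells of a type and less RNA per cell cannot be told apart.

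Net1 showed the largest difference of the 4 genes. Its level was 158.2, 179.3, 145.5 and 105.5 CPM in the Sham_SHU libraries, against 326.8, 294.6, 799.3 and 252.4 CPM in the Sham_Veh libraries. The sham groups did not overlap, and Sham_Veh3 stood far above the other Sham_Veh libraries. After sDVX it was 179.9, 247.0, 162.5 and 145.8 CPM in VX_SHU, against 420.9, 299.0, 445.1 and 202.7 CPM in VX_Veh. These groups overlapped through VX_SHU2 and VX_Veh4. The log2 difference between SHU9119 and vehicle was −1.51 ± 0.358 in sham mice, −0.90 ± 0.353 in sDVX mice and −1.20 ± 0.251 averaged over both (SE), the last a level 0.435 times that with vehicle. Group means rose in the order Sham_SHU (147.1 ± 31 CPM), VX_SHU (183.8 ± 44.3 CPM), VX_Veh (341.9 ± 113 CPM) and Sham_Veh (418.3 ± 256 CPM; SD, n = 4). Each group overlapped its neighbour in that order. Without Sham_Veh3 the difference in sham mice was −0.98 ± 0.263.

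Rassf6 was the least abundant, with 65 to 372 counts per library. It stood at 3.747, 3.583, 2.501 and 3.278 CPM in Sham_SHU, against 5.266, 5.606, 9.045 and 5.925 CPM in Sham_Veh. After sDVX it was 5.761, 6.277, 5.422 and 5.228 CPM in VX_SHU, against 7.354, 7.296, 13.12 and 9.496 CPM in VX_Veh. Within both surgeries every SHU9119 library lay below every vehicle library. Rassf6 was the 1 member with this in both, where 0.3% of all genes tested had it. The log2 difference was −0.98 ± 0.224 in sham mice, −0.72 ± 0.222 in sDVX mice and −0.85 ± 0.158 averaged. The order of groups was Sham_SHU (3.277 ± 0.553 CPM), VX_SHU (5.672 ± 0.459 CPM), Sham_Veh (6.461 ± 1.74 CPM) and VX_Veh (9.317 ± 2.74 CPM). VX_SHU and Sham_Veh overlapped, as did Sham_Veh and VX_Veh, while all VX_SHU libraries lay above all Sham_SHU libraries. How many of all genes have this last separation was not counted.

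Echdc2 was lower with SHU9119 in both surgeries, with overlap between infusions in each. It stood at 33.58, 30.48, 42.81 and 44.48 CPM in Sham_SHU, against 73.46, 81.62, 71.16 and 43.85 CPM in Sham_Veh. The overlap came from Sham_Veh4, which was below Sham_SHU4. After sDVX it was 48.08, 65.79, 38.98 and 47.36 CPM in VX_SHU, against 125.2, 66.88, 69.28 and 62.36 CPM in VX_Veh. VX_SHU2 was above VX_Veh4, and VX_Veh1 stood far above the rest. The log2 difference was −0.84 ± 0.250 in sham mice, −0.69 ± 0.249 in sDVX mice and −0.76 ± 0.177 averaged. Group means ran from Sham_SHU (37.84 ± 6.86 CPM) and VX_SHU (50.05 ± 11.3 CPM) to Sham_Veh (67.52 ± 16.4 CPM) and VX_Veh (80.92 ± 29.6 CPM), and each overlapped its neighbour. Without VX_Veh1 the difference in sDVX mice was −0.39 (log2).

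Dido1 varied least between libraries, with a biological coefficient of variation of 10.8%, against 34.9% for Net1, 29.2% for Rassf6 and 25.2% for Echdc2. It stood at 115.1, 111.8, 134.9 and 111.6 CPM in Sham_SHU, against 159.0, 163.3, 189.1 and 162.1 CPM in Sham_Veh. All Sham_SHU libraries were below all Sham_Veh libraries. After sDVX it was 155.8, 153.0, 138.0 and 132.8 CPM in VX_SHU, against 148.7, 137.4, 158.8 and 148.0 CPM in VX_Veh, and these groups overlapped throughout. The log2 difference was −0.51 ± 0.0831 in sham mice and −0.03 ± 0.0829 in sDVX mice, an average of −0.27 ± 0.0586. Both sDVX groups lay between the sham groups, at 144.9 ± 11.2 CPM in VX_SHU and 148.2 ± 8.73 CPM in VX_Veh, against 118.3 ± 11.2 CPM in Sham_SHU and 168.4 ± 13.9 CPM in Sham_Veh (SD, n = 4). VX_SHU overlapped Sham_SHU through VX_SHU4, and VX_Veh lay below Sham_Veh, with 158.8 CPM in VX_Veh3 and 159.0 CPM in Sham_Veh1. Genes with such a separation between surgeries were not counted.

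**Figure D1:**
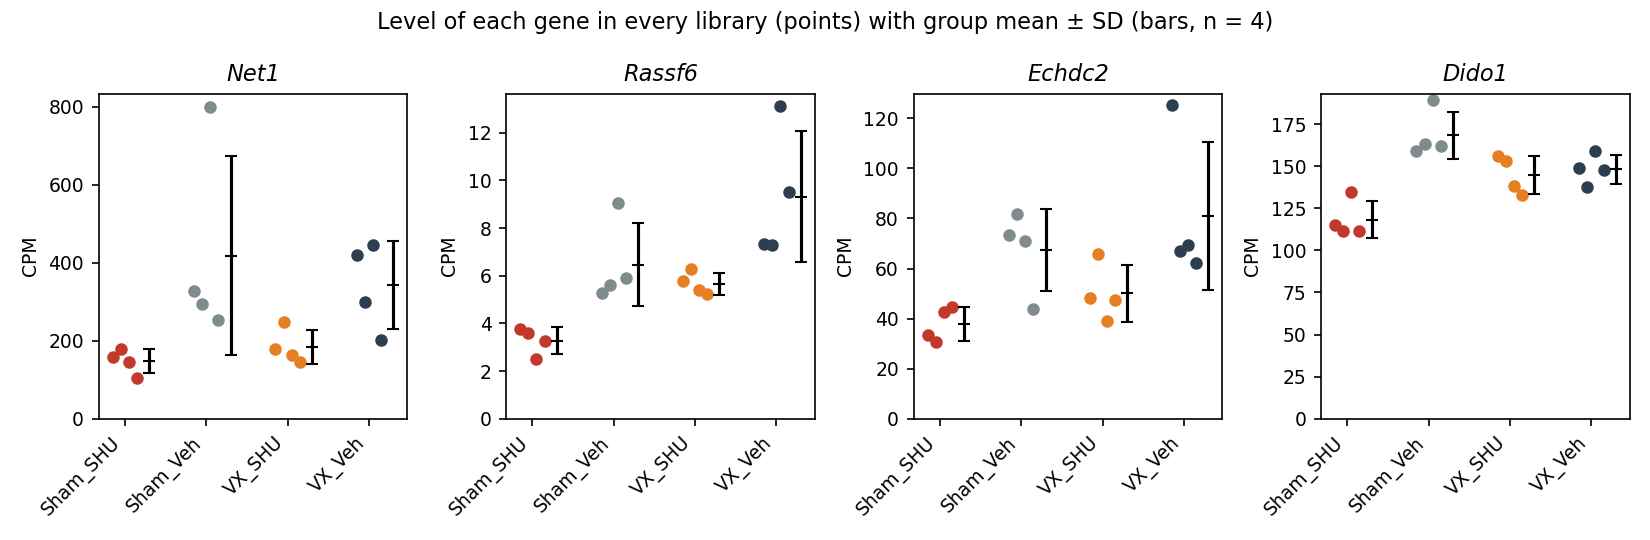
Level in CPM of Net1, Rassf6, Echdc2 and Dido1 in each of 16 libraries (points), with the mean and SD of each group of 4 (bars). The Sham_SHU points lie below the Sham_Veh points for Net1, Rassf6 and Dido1, and 1 Sham_Veh library reaches 799.3 CPM of Net1.

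In the averaged comparison all 4 members passed the threshold (edgeR adjusted p under 0.05). Net1, Rassf6 and Echdc2 were chosen on it, and Dido1 on the sham difference, which is part of it. None of these passes is therefore independent of the choice. Of the 16682 genes tested, 0.366% passed as lower in the averaged comparison, 1.5% as higher and 1.87% in either direction. By size of fall Dido1 was 43 in order among the 53 genes called lower there with a mean of at least 5 CPM. In sham mice, the comparison it was chosen on, Dido1 alone of the 4 passed, where 0.018% of genes passed as lower, 0.0959% as higher and 0.114% in either direction. In sDVX mice 0 of the 4 passed. By edgeR 0% of all genes passed there as lower and 0.00599% as higher, which is also the 0.00599% in either direction, while 1942 genes had an unadjusted p under 0.05 in either direction and DESeq2 called 3 as lower. All Sham_SHU libraries lay below all Sham_Veh libraries for 3 of 4 members and for 4.82% of all genes. After sDVX that held for 1 of 4 members and for 2.03% of all genes. All 8 SHU9119 libraries lay below all 8 vehicle libraries for 0 of 4 members and for 0.0659% of all genes. Echdc2, at −0.764 on the log2 scale, was the smallest fall kept in the averaged comparison. The next gene by size among those past the threshold, the early response gene Ier5, stood at −0.762. Among genes lower in sham mice, the first outside the threshold in order of edgeR p was Rnpc3, a splicing factor gene. It stood at −0.46 ± 0.0859 against −0.51 ± 0.0831 for Dido1.

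Whether the members passed depended on which libraries entered the fit. Every fit here reuses libraries on which the members were chosen, so its passes are not independent of the choice. In the 16 fits that each left out 1 library, the averaged log2 difference ran from −1.293 to −0.94 for Net1, −0.897 to −0.741 for Rassf6, −0.844 to −0.60 for Echdc2 and −0.293 to −0.238 for Dido1. Net1 passed the threshold in 6 of those 16 fits, Rassf6 in 7, Echdc2 in 3 and Dido1 in 4. Over all genes, those fits called from 3 to 1612 in either direction. All 4 members passed without Sham_SHU3, where 1612 genes passed (528 as lower). All 4 also passed without VX_Veh4, a fit whose count over all genes is not given here. Without Sham_SHU4, 3 genes passed and 0 of them as lower, so no member could be among them. With the 7 libraries rich in epididymis or testis markers left out, 9 libraries remained (2 or 3 per group). The averaged differences were then −0.91, −0.70, −0.86 and −0.26 for Net1, Rassf6, Echdc2 and Dido1. All 4 passed, in a fit where 4221 genes passed, 2262 of them as lower. In sham mice alone the same fit gave −0.91 for Net1, −0.60 for Rassf6, −1.30 for Echdc2 and −0.53 for Dido1.

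**Figure D2:**
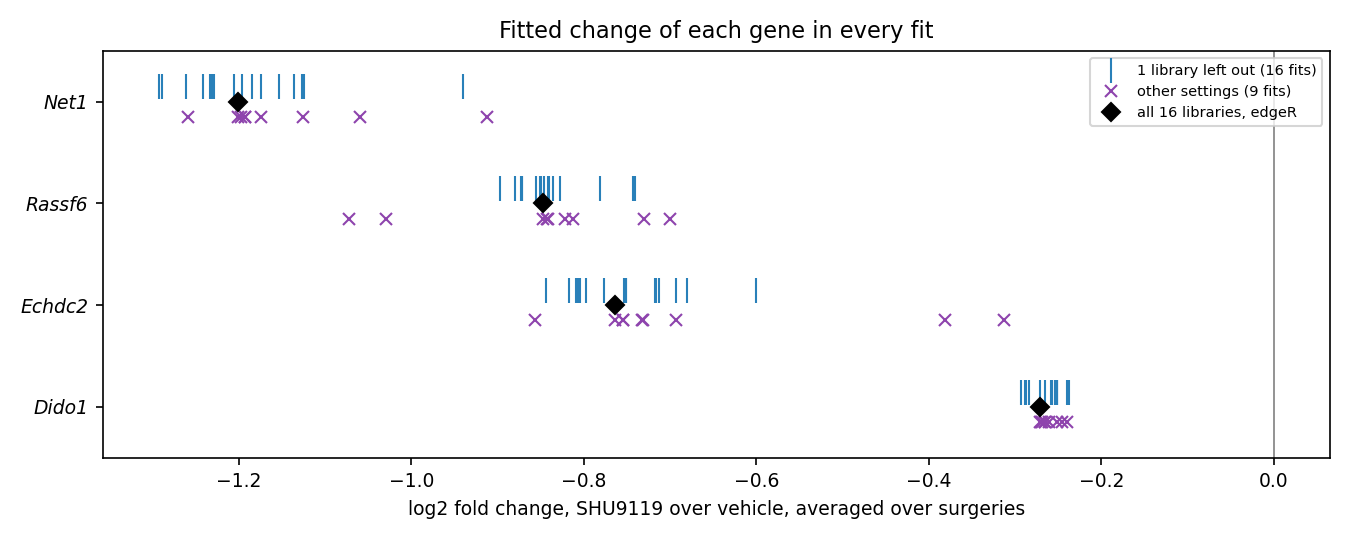
Log2 fold change of SHU9119 over vehicle, averaged over surgeries, for each gene (rows) with all 16 libraries (diamond), with 1 library left out (16 ticks) and under 9 other settings (crosses). All values are below 0, and the 2 Echdc2 crosses nearest 0, at −0.381 and −0.313, are the fits with marker sums as covariates.

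The 4 genes were chosen as lower with SHU9119. The vagotomy comparison, averaged over both infusions, is taken to have played no part in that choice, and was tested. Rassf6 was higher after sDVX by 0.66 ± 0.157 on the log2 scale (95% interval 0.317 to 1.002), a level 1.58 times that of sham mice, and did not pass (edgeR adjusted p = 0.224, unadjusted p = 0.000929). All VX_SHU libraries lay above all Sham_SHU libraries in Rassf6, and the VX_Veh libraries lay above all Sham_Veh libraries other than Sham_Veh3. The share of all genes with such a separation between surgeries was not counted, so it adds no support. Without 1 library the adjusted p of Rassf6 ran from 0.124 to 0.376 in edgeR, and DESeq2 gave 0.0155. Echdc2 differed by 0.33 ± 0.176 (interval −0.051 to 0.715, edgeR adjusted p = 0.366), Dido1 by 0.05 ± 0.0586 (interval −0.074 to 0.182, edgeR adjusted p = 0.645) and Net1 by 0.015 ± 0.247 (interval −0.524 to 0.554, edgeR adjusted p = 0.98). In this comparison 0% of the 16682 genes passed by edgeR, 2666 had an unadjusted p under 0.05, DESeq2 called 409 and limma-voom 112.

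The SHU9119 difference in sDVX mice minus that in sham mice asks whether vagotomy changed it. It was 0.61 ± 0.495 for Net1 (95% interval −0.468 to 1.691), 0.26 ± 0.313 for Rassf6 (−0.419 to 0.945) and 0.14 ± 0.351 for Echdc2 (−0.622 to 0.908), each with an edgeR adjusted p of 0.999. For Dido1 it was 0.48 ± 0.117 (0.22 to 0.731), with an edgeR adjusted p of 0.957 and an unadjusted p of 0.00121. The adjusted p of Dido1 was 0.0553 with the DESeq2 Wald test and 0.0575 with limma-voom, neither past the threshold. Dido1 was chosen on its difference in sham mice, which is part of this contrast, so none of these p-values is independent of the choice. By edgeR 0% of genes passed here, 794 had an unadjusted p under 0.05, DESeq2 called 8 and limma-voom 13.

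**Figure D3:**
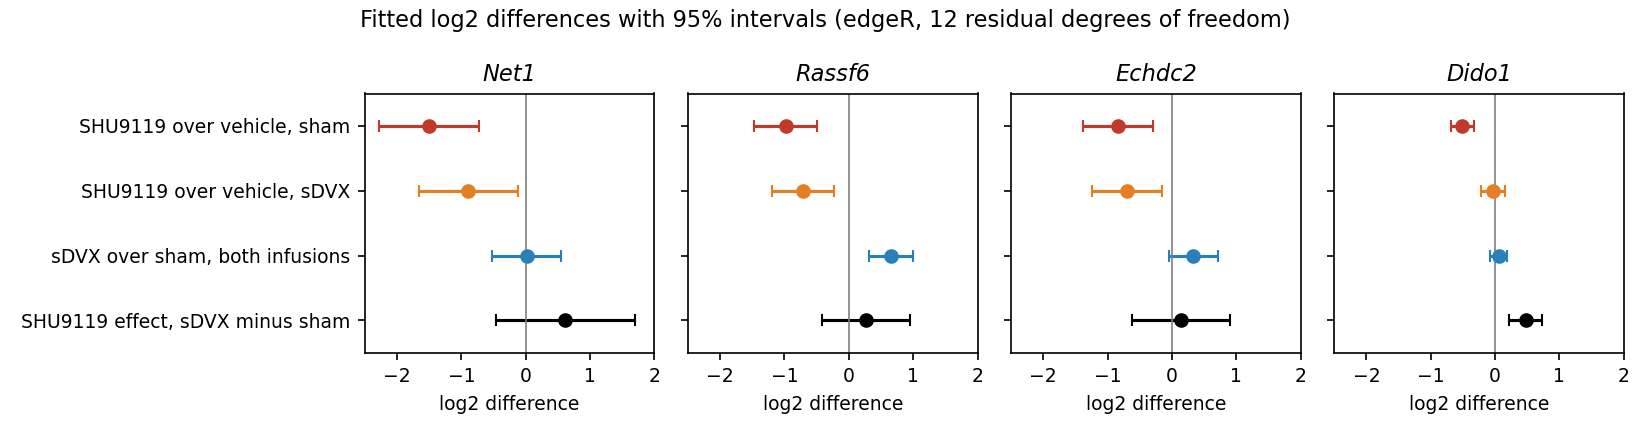
Fitted log2 differences with 95% intervals for each gene: SHU9119 over vehicle in sham and in sDVX mice, sDVX over sham averaged over infusions, and the SHU9119 effect in sDVX minus that in sham mice. Rassf6 sits above 0 for sDVX (0.317 to 1.002) and the sDVX value of Dido1 under SHU9119 sits at −0.03.

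Library by library, no pair of members passed a test of correlation within groups over all 16 libraries. After subtraction of each group's mean log2 CPM, 6 pairs of members were compared over 16 libraries. Net1 and Dido1 gave Pearson r = 0.58 and Spearman rho = 0.55 (permutation p = 0.0366 and 0.0443, adjusted p = 0.22 and 0.266 over the 6 pairs), and r = 0.50 without the 2 libraries farthest from the Net1 median. Net1 and Rassf6 gave r = 0.55 and rho = 0.41 (permutation p = 0.0979 and 0.177, adjusted 0.294 and 0.424), and r = 0.45 without the 2 libraries. The other 4 pairs had r from −0.214 (Rassf6 and Echdc2) to 0.367 (Rassf6 and Dido1), with permutation p from 0.187 to 0.494 and adjusted p from 0.374 to 0.494. Rassf6 and Dido1 gave r = −0.069 without VX_Veh3 and Sham_Veh3, and from 0.106 without Sham_Veh3 to 0.804 without Sham_SHU3 (permutation adjusted p = 0.744 and 0.0066). Over the 9 libraries without high epididymis or testis markers all 6 pairs were positive, with r from 0.326 to 0.837 and permutation adjusted p from 0.125 to 0.354. With 2 or 3 libraries per group few permutations exist, so a pair alone could not have passed there. These p-values decide nothing. Sham_Veh3 was the highest Sham_Veh library for Net1, Rassf6 and Dido1 and not for Echdc2. It also had the highest adipocyte marker sum of all libraries, 43970 CPM against 25074 to 30054 in the other Sham_Veh libraries, and a motile cilia sum of 14.66 CPM against 372.2 to 510.7. The part of these in the result was not tested.

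Echdc2 and the mesothelium markers gave the highest correlation of a member with a marker list, which did not pass after adjustment. The within-group deviations of Echdc2 and of the mesothelium sum correlated at r = 0.77 and rho = 0.75 over 16 libraries (permutation p = 0.0021 and 0.00327). Over the 40 relations of 4 genes with 10 marker lists, the adjusted p was 0.084 for r and 0.131 for rho. Without the 2 libraries farthest from the median of the sum, r was 0.73. Echdc2 gave r = 0.51 with the motile cilia sum and −0.58 with the adipocyte sum (permutation adjusted p = 0.454 for each). VX_Veh1, the library highest in Echdc2 (125.2 CPM), was the highest in mesothelium markers (858.3 CPM) and motile cilia markers (1380 CPM) and the lowest in adipocyte markers (14317 CPM). With the mesothelium sum as a covariate the averaged SHU9119 difference of Echdc2 was −0.31 ± 0.158, and with epididymis, testis and cilia sums −0.38 ± 0.108, against −0.76 ± 0.177 without. The mesothelium fit and the 3-covariate fit gave −1.26 and −1.20 for Net1, −1.07 and −1.03 for Rassf6, and −0.25 and −0.27 for Dido1.

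Rassf6 and the adipocyte markers gave r = 0.72 and rho = 0.58 within groups (permutation p = 0.011 and 0.0352, adjusted p = 0.22 and 0.366 over the 40 relations), and r = 0.62 without the 2 farthest libraries. This did not pass, and without subtraction of group means r was 0.042. Adipocyte sums overlapped between infusions, at 26582 to 33686 CPM in Sham_SHU against 25074 to 43970 CPM in Sham_Veh, and at 23283 to 33981 CPM in VX_SHU against 14317 to 33421 CPM in VX_Veh. Of the 40 relations 0 passed by permutation after adjustment, and 2 had an unadjusted p for r under 0.05, the pair given here and that of Echdc2.

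**Figure D4:**
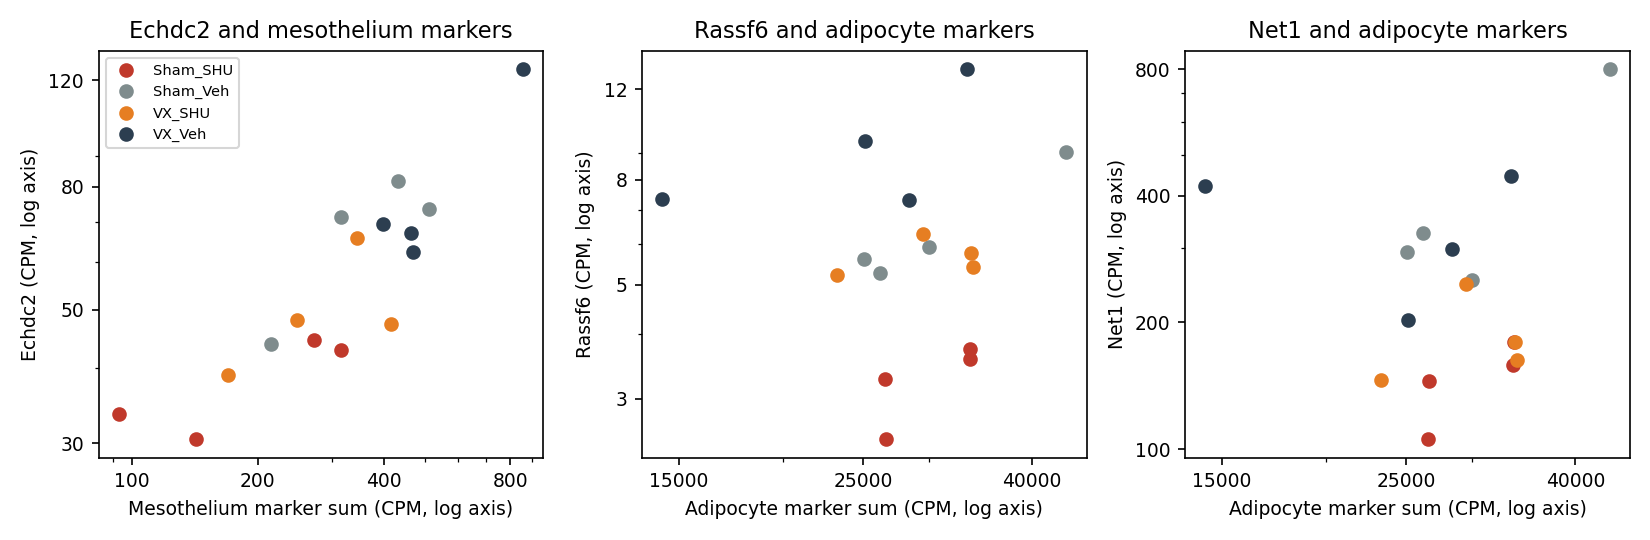
Level of Echdc2 against the summed mesothelium markers, and of Rassf6 and Net1 against the summed adipocyte markers, in CPM on log axes with 1 point per library coloured by group. VX_Veh1 is at the upper right for Echdc2 (125.2 and 858.3 CPM), and Sham_Veh3 at the right for Net1 (799.3 and 43970 CPM).

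The genes with the most similar profile differed between members. They were ranked by Pearson r of log2 CPM over the 16 libraries among 11672 genes with a mean of at least 5 CPM, and libraries of 1 group share their treatment. For Net1 they were Mettl7a1, which encodes a methyltransferase-like protein of lipid droplets (r = 0.95, and 0.93 after subtraction of group means), Rdm1 (0.92) and Ngrn (0.91). For Rassf6 they were Hddc3 (0.88), Apbb3 (0.86) and Klhl21 (0.85), and these fell to 0.62 to 0.67 after subtraction. For Echdc2 they included Mettl26 (0.97) and the deubiquitinase gene Usp11 (0.96), with 0.94 and 0.93 after subtraction. For Dido1 they included Agt, which encodes angiotensinogen (0.93), and Slc4a11 (0.92), with 0.82 and 0.76 after subtraction. Between members r over the 16 libraries ran from 0.617 (Rassf6 and Echdc2) to 0.78 (Net1 and Dido1), which the choice of genes lower with SHU9119 raises.

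Pathway genes around each member were described by their counts and medians. At the 1.87% of all genes called in the averaged SHU9119 comparison, and at most 0.114% in the other 4 comparisons, a count of 0 in a list of this length is near the background. Of 24 genes of RhoA activation 0 passed in any of the 5 comparisons by edgeR. Their median log2 difference with SHU9119, averaged over surgeries, was 0.05, against −0.035 over all genes tested, and 8 of 24 were negative against 55.4% of all genes. Arhgef3, the exchange factor closest to Net1 in family, stood at 0.01 ± 0.0534 (edgeR adjusted p = 0.918). The Net1 substrates Rhoa (0.16 ± 0.0589, edgeR adjusted p = 0.108) and Rhob (0.04 ± 0.158, edgeR adjusted p = 0.872) did not pass, nor did Rhoc (0.05 ± 0.0773). The smallest p-values were those of Arhgap35, which inactivates RhoA (0.17, edgeR adjusted p = 0.0684), Rhpn2, a rhophilin that binds it (−1.09 ± 0.329, adjusted p = 0.0763, beside −1.20 for Net1), and Arhgdia, which holds RhoA in the cytosol (0.22, adjusted p = 0.0812).

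Of the Rassf family and the Hippo pathway, 28 of 29 genes were tested and 0 passed in any comparison by edgeR, again near the background. The median with SHU9119, averaged, was 0.026 and 12 of 28 were negative, against −0.035 and 55.4% over all genes. The largest fall in the list was that of Wwc1, an upstream regulator of the Hippo kinases, at −2.02 ± 0.864 (edgeR adjusted p = 0.145). Family members pointed both ways in the averaged SHU9119 comparison without passing. Rassf8 (0.39 ± 0.102, edgeR adjusted p = 0.0606) and Rassf3 (0.68 ± 0.195, edgeR adjusted p = 0.069) were on the higher side. Rassf7 (−0.65 ± 0.319), Rassf9 (−0.59 ± 0.212) and Rassf10 (−0.57 ± 0.293) were on the lower side, with edgeR adjusted p of 0.197, 0.101 and 0.219. Rassf1 (−0.05), Rassf4 (0.03) and Rassf5 (0.04) were near 0, and Rassf2 was at 0.30 ± 0.147. The kinase genes Stk3 (−0.03 ± 0.0662) and Stk4 (0.06 ± 0.051), whose products bind Rassf proteins, had edgeR adjusted p of 0.823 and 0.469. Lats2, the kinase below them, stood at 0.21 ± 0.0625 (edgeR adjusted p = 0.0726).

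Of 27 genes of the enoyl-CoA hydratase family and of branched-chain amino acid breakdown, 0 passed in any comparison by edgeR, near the background of 1.87% or less. With SHU9119, averaged over surgeries, the median was 0.068 and 6 of 27 were negative, against −0.035 and 55.4% over all genes. The closest named relatives of Echdc2 were Echdc1, which repairs a side product of fatty acid synthesis (0.31 ± 0.263, edgeR adjusted p = 0.469), and Echdc3 (−0.11 ± 0.118, edgeR adjusted p = 0.565). The smallest p-values belonged to Dld, a subunit shared by several dehydrogenase complexes (0.31, edgeR adjusted p = 0.12), Pcca (0.25, adjusted p = 0.202) and Mmut (0.20, adjusted p = 0.221), enzymes of propionate breakdown. After sDVX, averaged over infusions, 26 of 27 were negative, with a median of −0.123 against 0.001 over all genes, of which 49.7% were negative. Adipocyte marker sums averaged 30146 CPM in VX_SHU against 30140 CPM in Sham_SHU, and 25320 CPM in VX_Veh, with VX_Veh1 at 14317 CPM, against 31331 CPM in Sham_Veh. Their part in the list was not tested. Echdc2 itself stood at 0.33 in that comparison.

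Of 24 genes of transcription elongation and histone H3 lysine reading, 23 were found in the table and tested, and 0 passed in any comparison by edgeR, near the background of 1.87% or less. The median with SHU9119, averaged, was −0.034, against −0.035 over all genes, and 16 of 23 were negative, against 55.4% of all genes. Values in the list ran from −0.73 to 0.277, with Dido1 itself at −0.271. Phf3, the elongation regulator closest to Dido1 in domain structure, stood at −0.07 ± 0.0516 (edgeR adjusted p = 0.401), and Spen, which shares 1 of its domains, at 0.06 ± 0.0608 (edgeR adjusted p = 0.558). The smallest p-values were those of Polr2a, the largest subunit of RNA polymerase II (0.15, edgeR adjusted p = 0.0603), and of the histone readers Ing1 (−0.27, adjusted p = 0.0813) and Ing5 (−0.11, adjusted p = 0.143). Spocd1 was not analysed here.

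**Figure D5:**
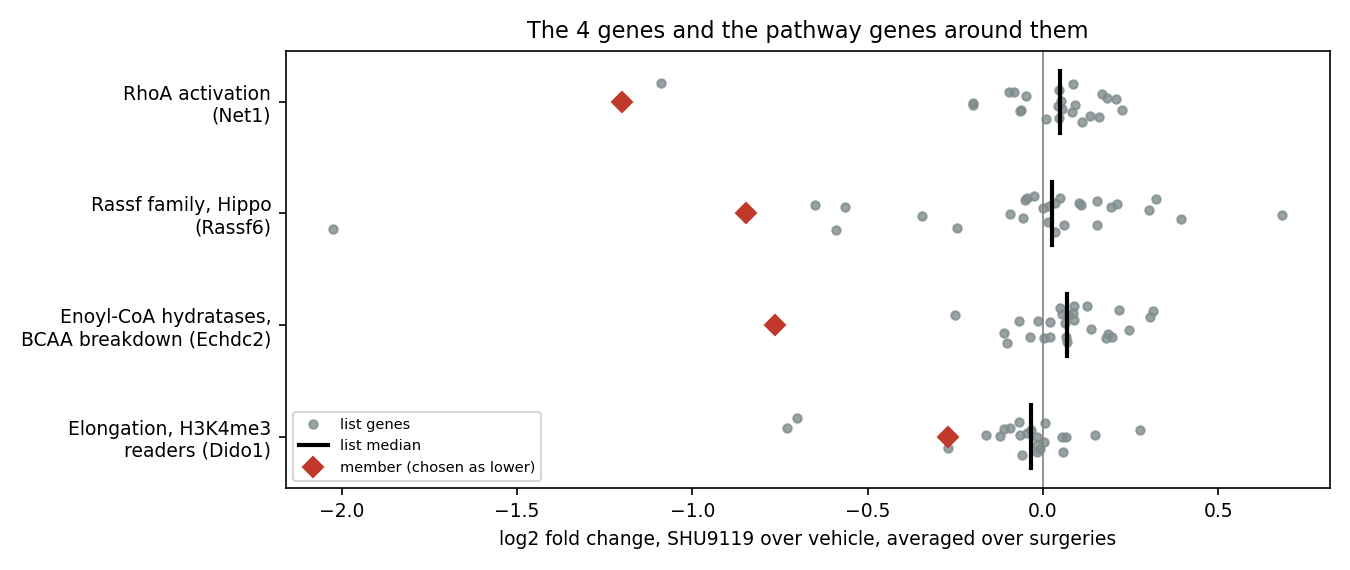
Log2 fold change of SHU9119 over vehicle, averaged over surgeries, for the genes of 4 pathway lists (grey points), the median of each list (black line) and the member it belongs to (red diamond, chosen as lower). List medians lie between −0.034 and 0.068. The members, which the choice placed low, lie between −1.20 and −0.27. The lowest gene of each list, from the top row down, stands at −1.09, −2.025, −0.252 and −0.73.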

How the data were processed

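Polyadenylated RNA of gonadal fat was sequenced in 16 libraries. The authors deposited whole-number counts per gene, named by NCBI gene number, and bcl2fastq, TopHat, edgeR and the mm10 build are named without versions in the submitters' processing notes. How reads were assigned to genes, with which annotation and strand setting, is not given in the sources used here. Of 24454 gene numbers 24374 matched a RefSeq symbol on GRCm38.p6, and the other 80 held 0.557% to 1.24% of a library's counts. No 2 replicates were copies (24 pairs, chi-square per degree of freedom 11.8 to 204 over genes with at least 20 counts).

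In R 4.3.3 with edgeR 4.0.16, genes were filtered by filterByExpr and scaled by TMM. All libraries entered 1 robust quasi-likelihood model with a mean for each group, which leaves 12 residual degrees of freedom, with Benjamini-Hochberg adjustment over 16682 genes and a threshold of 0.05. Standard errors are the log2 difference over the root of F, and 95% intervals use 12 degrees of freedom. CPM use TMM-scaled totals, and log2 CPM a prior count of 2. Correlations were tested by 100000 permutations within groups, two-sided. Alternatives were DESeq2 1.42.0 size factors and Wald test, limma-voom (3.58.1) with sample weights, no filter, non-robust dispersion, the replicate number as a block, marker sums as covariates, and leaving out libraries. The code was tested on simulated data.

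The members, gene lists and comparisons were chosen with earlier results of these data known. Named genes are the 4 members, small-family relatives, the 3 smallest p-values per pathway list in the averaged SHU9119 comparison and the 3 most similar profiles per member, some of which are not reported here. Gid8, Tubal3, Ier5, Rnpc3 and Wwc1 were chosen after their values were seen, for their position or rank. Epididymis, testis, macrophage, endothelial, stromal, mural and lymphocyte markers were summed too.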

Additional observations from a re-analysis of the deposited data

Results flagged for a closer look

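In 4 of the 16 combinations of gene and group, 1 library stood apart from the other 3 by more than Dixon's limit for 4 samples (0.829 of the range). Chance gives about 1 in 20 such groups, and these groups share libraries. Net1 reached 799.3 CPM in Sham_Veh3, against 252.4 to 326.8 CPM in the other Sham_Veh libraries. Dido1 reached 189.1 CPM in the same library, against 159.0 to 163.3 CPM. Dido1 was at 134.9 CPM in Sham_SHU3, against 111.6 to 115.1 CPM in the other Sham_SHU libraries. Echdc2 was at 125.2 CPM in VX_Veh1, against 62.36 to 69.28 CPM in the other VX_Veh libraries.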

How the results depend on the processing

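The counts of genes past the threshold depended strongly on the setting. For SHU9119 averaged, in sham and in sDVX mice (312, 19 and 1 genes), DESeq2 gave 2781, 1178 and 47, limma-voom 3899, 3874 and 20, and the fits without the 7 libraries rich in epididymis or testis markers 4221, 4450 and 0. With epididymis, testis and cilia covariates they were 0, 5 and 0, and with the mesothelium covariate 0, 0 and 0. Without a filter the averaged count was 167 and that in sDVX mice 0, and DESeq2 size factors gave 0 in sDVX mice. For sDVX and the interaction (0 each), DESeq2 gave 409 and 8, and limma-voom 112 and 13. The averaged genes split into 251 higher and 61 lower, against 1349 and 1432 with DESeq2, 1918 and 1981 with limma-voom, 152 and 15 without a filter, and 1959 and 2262 without the 7 libraries. Leaving out 1 library gave 3 (without Sham_SHU4 or VX_Veh3) to 1612 (without Sham_SHU3), 0 to 982 and 0 to 1 genes for the 3 SHU9119 comparisons, 0 for sDVX and 0 to 1 for the interaction.

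Not every same-numbered pair deviated together, so the numbers were not taken to pair the libraries: 13 of 24 such pairs correlated over 0.1 (median 0.179), against 30 of 72 pairs with other numbers (median −0.0251), and 5 of 16 libraries correlated best with their own number. With the replicate block the 3 SHU9119 comparisons gave 0, 0 and 0 genes, and the averaged values were −1.126, −0.813, −0.732 and −0.27 for Net1, Rassf6, Echdc2 and Dido1.

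The averaged SHU9119 difference of Echdc2 moved by more than the spread between replicates, to −0.381 with the 3 covariates and −0.313 with the mesothelium covariate. Rassf6 after sDVX passed with DESeq2 (0.66, adjusted p = 0.0155). Net1 after sDVX changed sign with the 3 covariates (−0.085) and in 7 of the 16 fits without 1 library (−0.072 to 0.278). The interaction changed sign without the 7 libraries for Net1 (−0.006) and Rassf6 (−0.207), and without VX_SHU2 for Echdc2 (−0.018, range to 0.419). The correlation of Rassf6 and Echdc2 was 0.326 without the 7 libraries, and that of Rassf6 and Dido1 ran from 0.106 to 0.804 without 1 library. The cause was not tested. Rassf6, with 65 to 372 counts per library, has the least depth behind it.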
